A study of Mus musculus with 2 samples.

Results

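Red cell precursors were captured with the joint tissue, and 10 genes that make or accompany haemoglobin are described here across their stages. The genes were Hba-a1, Hba-a2, Hbb-bs and Hbb-bt (the adult alpha and beta globin chains), Alas2, Slc4a1, Klf1, Bpgm, Car1 and Car2. They were chosen by symbol, and all 10 were found among the 32285 genes of the count tables. The temporomandibular joint (TMJ) of mice injected with complete Freund's adjuvant (CFA) was profiled by droplet-based single-cell RNA sequencing in 1 library of WT animals and 1 of Prox1 mutant animals. Both groups were C57BL/6, 8 to 10 weeks old and CFA-treated, and no untreated library is analysed here. The study used heterozygous Prox1 animals as a model of lymphatic deficiency, and how many mice entered each library is not stated in the sources used here. With 1 library per group, every difference between WT and mutant compares 2 libraries. No test or p-value is given, and the 95% intervals cover counting error only.

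In an erythroblast, Gata1 and Klf1 switch on the globin and haem genes as the cell divides, condenses its nucleus and finally expels it. Alpha and beta chains pair around haem to form haemoglobin, while the anion exchanger Slc4a1 (band 3), the carbonic anhydrases Car1 and Car2 and the phosphoglycerate mutase Bpgm equip the cell to carry carbon dioxide and to release oxygen. Adult mice make red cells mainly in marrow, and the bone that borders the TMJ contains marrow.

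Erythroblasts were gated without any of the 10 genes, as droplets with at least 3 unique molecular identifiers (UMIs) over 10 other erythroid genes (Rhag, Ermap, Hemgn, Epb42, Tspo2, Trim10, Rhd and Kel among them) from at least 2 of them. They were called proliferating when Top2a and Mki67 together had at least 2 UMIs and late when they had 0. The WT library held 197 proliferating and 59 late erythroblasts among 4352 droplets that passed the filter on genes and mitochondrial UMIs, and the mutant library held 553 and 166 among 5757. A further 37 and 119 erythroblasts had 1 such UMI and are given as an intermediate group. Haemoglobin-rich droplets had at least 25% haemoglobin UMIs, 0 UMIs of the gate genes and too few marker UMIs to pass as another class. They numbered 86 of 5709 deposited barcodes in WT and 389 of 7846 in the mutant. Of these droplets, 12.8% in WT and 38.3% in the mutant still carried at least 3 UMIs over 50 markers of other cell classes. This cut takes no account of how few UMIs other than haemoglobin these droplets held. Since haemoglobin chose the last group, its haemoglobin level is a description only.

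Proliferating erythroblasts matched their label in both libraries, and late ones less fully. Gata1, an erythroid transcription factor, stood at 206 (WT) and 211 (mutant) CPM in proliferating erythroblasts, compared with 0.116 and 0.962 CPM over all other classes. CPM here means UMIs per 1000000 UMIs other than those of the 4 haemoglobin genes, because haemoglobin alone took a large share of the UMIs of these cells. The transferrin receptor Tfrc was at 1558 and 1087 CPM against 16.04 and 21.9 CPM, and the leukocyte gene Ptprc at 10.6 and 41.7 CPM against 275.5 and 498 CPM. In late erythroblasts Gata1 stood at 87.75 and 41.5 CPM, Tfrc at 1410 and 726 CPM and Ptprc at 132 and 177 CPM, so Ptprc was higher than in proliferating cells and lower than in other classes. The part of leukocyte RNA in the late groups' values was not tested.

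The 2 libraries differed in how far haemoglobin RNA reached beyond these cells. Total depth was 53517206 UMIs in WT and 62446987 UMIs in the mutant, of which haemoglobin made 7.90% and 16.3%, and the libraries shared 10 cell barcodes. In WT, the median haemoglobin share of the other classes with at least 20 droplets ran from 0.0179% in osteoclasts to 0.0449% in Schwann cells. In the mutant it ran from 0.0862% in smooth muscle to 13.0% in adipocytes. The mutant library held 1280 filtered droplets outside the erythroblast groups with 5 to 40% haemoglobin, or 22.2% of its filtered droplets, whereas WT held 31, or 0.712%. Of erythroblast-gated droplets, 38.8% in the mutant and 13.6% in WT also passed another class and were set aside. Prox1 had 563 UMIs (11.6 CPM of all UMIs) in WT against 315 UMIs (5.80 CPM) in the mutant among filtered droplets. Within endothelial droplets the direction was the other way, at 12.5 CPM (85 UMIs) in WT and 18.5 CPM (94 UMIs) in the mutant. Muscle satellite cells, at 313 CPM in WT, numbered 22 in WT and 8 in the mutant. The part of the cell mix in the library values was not tested.

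The globin pairs lie next to each other in the GRCm38 genome, Hba-a1 at chr11:32283511-32284465 and Hba-a2 at chr11:32296489-32297298 on the plus strand, and Hbb-bt at chr7:103812524-103813996 and Hbb-bs at chr7:103826534-103828096 on the minus strand. Car1 (chr3:14766216-14808368, minus) and Car2 (chr3:14886273-14900770, plus) are also neighbours. Alas2 lies at chrX:150547375-150570638, Bpgm at chr6:34476207-34505613 and Klf1 at chr8:84901928-84905291, all on the plus strand, and Slc4a1 at chr11:102348824-102366203 on the minus strand. RefSeq promoter sequence (GRCm38.p6) was matched for 7 of the 10 genes. Slc4a1, Car1 and Car2 had no entry. Because most of these genes share one set of regulators and differ in when they are highest, the 250 bases before the RefSeq transcription start are shown for 6 of them, 5′ to 3′ along the gene. Capitals mark matches on either strand to GATAA (the core bound by Gata1), CACCC (the core bound by Klf1), CCAAT and TATAA.
Hba-a2, chr11:32296242-32296491, plus strand: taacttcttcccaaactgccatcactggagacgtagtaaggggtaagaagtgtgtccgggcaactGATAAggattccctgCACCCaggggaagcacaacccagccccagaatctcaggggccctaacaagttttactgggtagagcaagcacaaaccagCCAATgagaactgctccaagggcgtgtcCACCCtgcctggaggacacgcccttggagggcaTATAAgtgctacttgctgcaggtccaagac
Hbb-bs, chr7:103827929-103828178, minus strand: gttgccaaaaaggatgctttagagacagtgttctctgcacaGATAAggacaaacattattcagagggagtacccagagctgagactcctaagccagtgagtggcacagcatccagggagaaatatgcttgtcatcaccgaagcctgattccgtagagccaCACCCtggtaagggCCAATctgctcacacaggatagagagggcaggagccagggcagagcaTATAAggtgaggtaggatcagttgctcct
Hbb-bt, chr7:103813924-103814173, minus strand: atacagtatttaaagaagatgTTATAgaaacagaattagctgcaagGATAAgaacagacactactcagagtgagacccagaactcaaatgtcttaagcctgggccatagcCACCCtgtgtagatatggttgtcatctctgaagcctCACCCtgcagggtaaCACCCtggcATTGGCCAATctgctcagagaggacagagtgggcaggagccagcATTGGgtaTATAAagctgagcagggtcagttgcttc
Alas2, chrX:150547167-150547416, plus strand: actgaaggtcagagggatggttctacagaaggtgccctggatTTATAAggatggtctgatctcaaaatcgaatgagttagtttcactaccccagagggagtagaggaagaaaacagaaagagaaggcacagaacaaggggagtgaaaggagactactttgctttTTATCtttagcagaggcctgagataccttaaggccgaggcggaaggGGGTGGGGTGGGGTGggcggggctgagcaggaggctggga
Klf1, chr8:84901732-84901981, plus strand: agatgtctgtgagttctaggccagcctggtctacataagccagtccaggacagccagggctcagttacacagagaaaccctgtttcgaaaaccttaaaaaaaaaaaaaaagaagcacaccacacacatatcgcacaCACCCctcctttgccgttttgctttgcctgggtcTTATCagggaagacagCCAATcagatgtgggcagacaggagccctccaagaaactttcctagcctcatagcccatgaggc
Bpgm, chr6:34476106-34476355, plus strand: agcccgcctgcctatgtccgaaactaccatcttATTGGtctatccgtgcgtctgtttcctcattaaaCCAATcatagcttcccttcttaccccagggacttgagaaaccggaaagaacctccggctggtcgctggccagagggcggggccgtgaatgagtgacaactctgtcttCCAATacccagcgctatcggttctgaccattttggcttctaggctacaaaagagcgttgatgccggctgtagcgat

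The Hba-a1 window (chr11:32283422-32283671) is identical to that of Hba-a2 over 247 aligned bases, offset by a few bases, and is not printed. GATAA or TTATC occurred in 6 of the 7 windows against 22.6% of the 32851 RefSeq promoter windows of this length. CACCC or GGGTG occurred in 6 against 52%, CCAAT or ATTGG in 6 against 33.8%, and TATAA or TTATA in 5 against 22.8%. The first 3 of these motifs occurred together in 5 of the 7 windows and in 3.45% of all windows. These 5 are Klf1 and both globin pairs, and the Hbb-bs and Hbb-bt windows match at 81.2% of aligned bases. The windows of a pair are related copies, so these counts are not of independent windows. The 3 GGGTG matches of Alas2 abut one another, its 2 TATA matches overlap, and Bpgm, which has the largest stage difference below, had 3 CCAAT matches and none of the other motifs. The gene positions above, from another annotation, begin inside each of the 7 windows, so the start site is uncertain. A match is only these letters, and no binding was measured.

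Haemoglobin took a larger share of the UMIs of late than of proliferating erythroblasts in both libraries. Late droplets were those with 0 UMIs of Top2a and Mki67, and they held fewer UMIs other than haemoglobin. Their median was 1967 (WT) and 1737 (mutant) against 4708 and 5391 in proliferating ones. The stage rule is therefore not independent of the haemoglobin share, and its part in the difference was not tested. Summed over droplets, the 4 genes made 35.47% (95% exact binomial interval 35.41 to 35.54) of UMIs in WT and 27.54% (27.51 to 27.57) in mutant proliferating erythroblasts, and 65.29% (65.15 to 65.43) and 63.45% (63.35 to 63.54) in late erythroblasts. Over single droplets the median was 48.6% (quartiles 22.6 and 65.8) in WT against 34.4% (13.9 and 49.1) in mutant proliferating cells. In late cells it was 71.9% (66.7 and 76.7) and 58.8% (26.4 and 74.4). The stages therefore overlapped droplet by droplet, and the mutant late group was the widest of these by its quartiles. Among late droplets 18.6% in WT and 39.8% in the mutant carried at least 3 UMIs over the 50 markers of other cell classes, which summed to 608 and 1460 CPM with a median of 1 and 2 UMIs and a highest value of 5 and 18. 24 and 6 of these markers were at 0, Cd3e and Sox10 among them in both. More proliferating droplets met the same cut, 27.4% in WT and 51.4% in the mutant. They held more UMIs other than haemoglobin, and per such UMI the markers were lower, at 282 and 445 CPM. The part of such material in the mutant's spread was not tested. Late cells with under 3 such UMIs, an alternative chosen after seeing the data, had 66.0% and 67.4% haemoglobin, and proliferating cells chosen the same way 47.6% and 41.8%. This cut on raw UMIs takes no account of how many UMIs other than haemoglobin a droplet held. Its part in these shares was not tested.

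**Figure D1:**
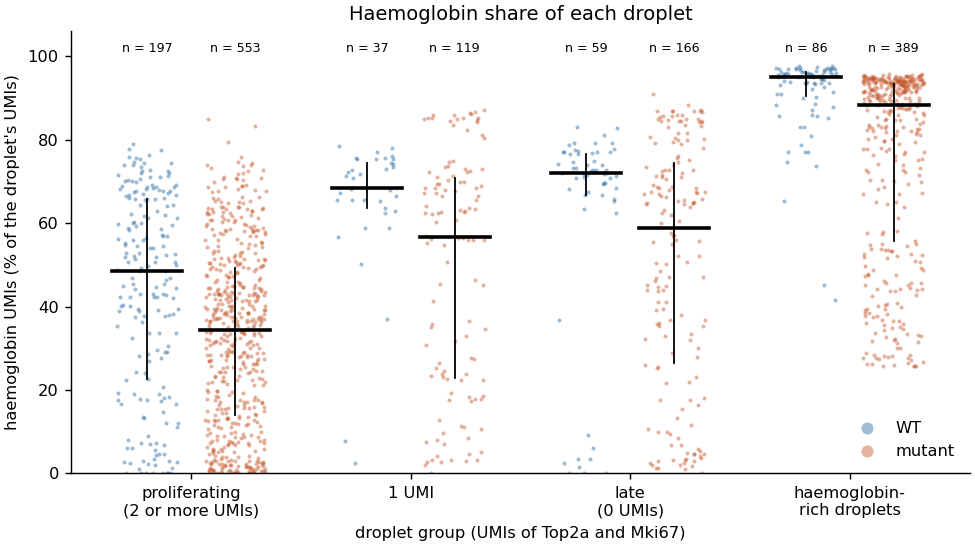
Haemoglobin UMIs as a percent of each droplet's UMIs (vertical axis) in proliferating, 1-UMI and late erythroblasts and haemoglobin-rich droplets, for WT (blue) and mutant (orange). Each point is 1 droplet, thick bars are medians, thin bars span the quartiles; WT late cells gather between 66.7 and 76.7% while the quartiles of mutant late cells are 26.4 and 74.4%.

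Droplet numbers differed between the libraries in every group. Proliferating erythroblasts were 4.53% (3.93 to 5.19, exact binomial) of filtered WT droplets and 9.61% (8.86 to 10.4) of filtered mutant droplets. Late erythroblasts were 1.36% (1.034 to 1.745) and 2.88% (2.47 to 3.35). Haemoglobin-rich droplets were 1.51% (1.21 to 1.86) of all WT barcodes and 4.96% (4.49 to 5.46) of all mutant barcodes, and 2 and 88 of them passed the filter. With 20 to 25% haemoglobin and otherwise the same marks there were 0 droplets in WT and 13 in the mutant, and with 25 to 30% there were 0 and 21. Most haemoglobin RNA lay in barcodes that the filter removes, 61.2% of haemoglobin UMIs in WT and 53.3% in the mutant. Under the looser filter of 200 genes and 20% mitochondrial UMIs, late erythroblasts numbered 291 and 466.

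Between the stages, 6 of the 10 genes were at least 2-fold higher in late than in proliferating erythroblasts in both libraries, namely the 4 haemoglobin genes, Alas2 and Bpgm. Klf1 and Car1 were at least 2-fold lower, and Slc4a1 and Car2 were past neither. Among all 4396 genes with at least 50 UMIs over the stages in each library, 7.6% were at least 2-fold higher in late cells in both libraries and 37% at least 2-fold lower. The median log2 ratio of all these genes was -0.84 in WT and -1.04 in the mutant, so the typical gene was lower in late cells on this scale. The count of 6 depends on that scale: per 1000000 of all UMIs 2 genes, Hba-a2 and Bpgm, stayed past 2-fold, and per droplet only Bpgm did. With a filter of 1000 genes and 5% mitochondrial UMIs, which left 6 and 31 late cells, Bpgm alone was past 2-fold higher. Proliferating erythroblasts held a median of 4708 (WT) and 5391 (mutant) UMIs other than haemoglobin and late ones 1967 and 1737.

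**Figure D2:**
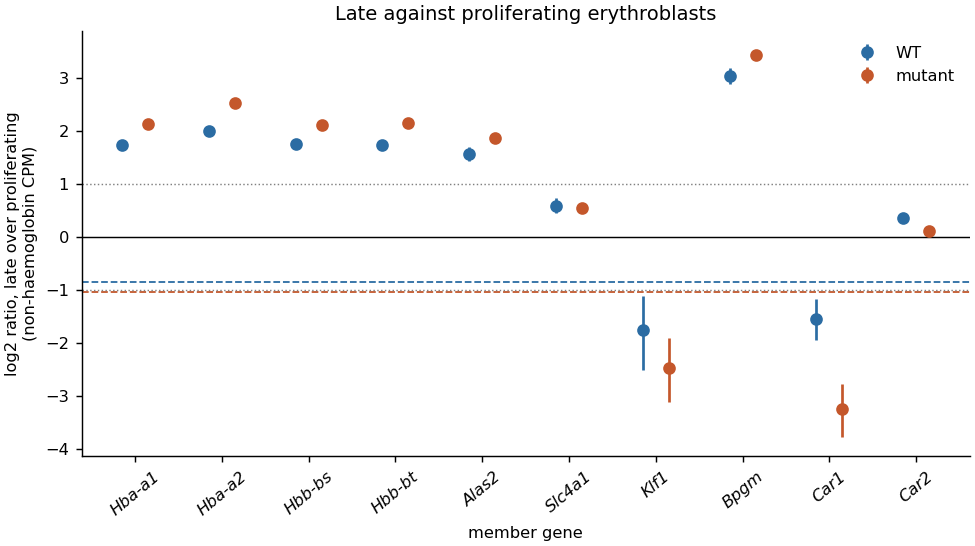
Log2 ratio of late over proliferating erythroblasts (vertical axis, non-haemoglobin CPM) for each of the 10 genes in WT (blue) and mutant (orange), with 95% counting intervals. Dashed lines are the medians of all 4396 genes, at -0.84 and -1.04, and dotted lines mark 2-fold; Bpgm stands highest at 3.04 and 3.45, and Klf1 and Car1 lie below -1.

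The 4 haemoglobin genes, which encode the chains themselves, were between 3.33-fold and 5.79-fold higher in late cells per non-haemoglobin UMI. Hbb-bs, the most abundant, made 18.9% of all UMIs in WT and 13.4% in mutant proliferating cells and 34.6% and 29.3% in late cells. Hba-a1 made 9.59% and 6.55% in proliferating cells and 17.3% and 14.5% in late cells. Hbb-bt made 4.56% and 3.865%, then 8.18% and 8.73%. Hba-a2 had the largest stage difference of the 4, from 2.43% and 3.73% to 5.25% and 10.9% of UMIs, a log2 ratio of 2.01 (1.99 to 2.03) in WT against 2.53 (2.52 to 2.54) in the mutant. Per droplet the difference was small: a WT proliferating erythroblast held 2247 Hbb-bs UMIs on average and a late one 2694, and a mutant one 1619 and 1744.

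Alas2, the erythroid enzyme that starts haem synthesis, was at 1426 CPM (1367 to 1488, exact Poisson) in WT against 1371 CPM (1338 to 1404) in mutant proliferating cells. In late cells it was at 4237 (3924 to 4569) and 5024 CPM (4795 to 5261). The log2 ratio was 1.57 (1.44 to 1.70) in WT against 1.87 (1.80 to 1.95) in the mutant. Its mean per droplet barely differed by stage, at 10.95 and 11.5 UMIs in WT and 12 and 10.9 in the mutant, where the direction turned to a log2 ratio of -0.14. The intermediate erythroblasts, at 4609 and 4835 CPM, lay near the late level.

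Bpgm, which makes the 2,3-bisphosphoglycerate that lowers haemoglobin's oxygen affinity, had the largest stage difference of the 10. It was at 540.2 CPM (504 to 579) in WT against 594 CPM (572 to 616) in mutant proliferating cells, and at 4450 (4129 to 4790) and 6470 CPM (6210 to 6737) in late cells. This is 8.24-fold and 10.9-fold, and it held per droplet, at 4.15 against 12.03 UMIs in WT and 5.20 against 14.1 in the mutant. Bpgm was past 2-fold higher in both libraries on each of the 3 scales, and intermediate cells, at 4480 and 6040 CPM, again lay near the late level.

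Slc4a1, the band 3 protein that exchanges chloride for bicarbonate and anchors the membrane skeleton, was within 2-fold between the stages per non-haemoglobin UMI. It was at 1855 and 1982 CPM in proliferating cells and 2802 and 2889 CPM in late cells of WT and mutant, 1.51-fold and 1.46-fold. Car2, the high-activity carbonic anhydrase, was at 5738 and 4782 CPM in proliferating cells and 7390 and 5179 CPM in late cells. It was the most abundant of the 6 genes other than haemoglobin in proliferating cells of both libraries and in WT late cells. In mutant late cells Bpgm, at 6470 CPM, stood above Car2. For Car2 the difference between the stages was small. Its log2 ratios were 0.37 (0.28 to 0.45) and 0.12 (0.05 to 0.18). For both genes the direction turned per 1000000 of all UMIs, to log2 ratios of -0.30 and -0.44 for Slc4a1 and -0.53 and -0.87 for Car2. Per droplet both were lower in late cells, Slc4a1 at 14.2 then 7.58 UMIs in WT and 17.35 then 6.28 in the mutant. Car2 went from 44.05 to 19.98 and from 41.9 to 11.3 UMIs per droplet, past 2-fold in both libraries.

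Klf1, the transcription factor that drives beta globin through CACCC sites, was lower in late cells in both libraries. It was at 404 CPM (373 to 437) in WT against 386 CPM (369 to 404) in mutant proliferating cells and at 119 (71.7 to 186) and 69.2 CPM (44.8 to 102) in late cells, which rest on 19 and 25 UMIs. The lower level was 3.39-fold and 5.57-fold, and it was past 2-fold in both libraries under every alternative tried. Car1, the low-activity carbonic anhydrase, was at 1077 CPM (1026 to 1131) and 926.5 CPM (900 to 954) in proliferating cells. Late cells had 370 CPM (281.5 to 477) in WT against 96.9 CPM (67.5 to 135) in the mutant. Of the 59 Car1 UMIs in WT late cells 49 came from 1 droplet, and without it the level was 70.7 CPM. All 59 lay in the 9 WT late droplets with under 10% haemoglobin, and the other WT late droplets had 0. In the mutant, late droplets with under 10% haemoglobin held 9 of the 35 Car1 UMIs. In proliferating cells Car1 was found in 62 of 197 WT droplets and 213 of 553 mutant droplets, and the top droplet held 268 of 1629 UMIs in WT and 242 of 4485 in the mutant.

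Proliferating erythroblasts with different haemoglobin shares showed an order of the 6 genes other than haemoglobin, given here per non-haemoglobin UMI. Haemoglobin shares from 0 to 10, 10 to 30, 30 to 50, 50 to 70 and 70 to 100% of UMIs held 30, 29, 44, 68 and 26 WT droplets and 114, 123, 185, 111 and 20 mutant droplets. These bins were set with the data in view, and the values along them are a description. Car1 was highest in the lowest bin, at 2279 CPM in WT against 1706 CPM in the mutant, and each following bin was lower. It went through 827 and 692, 134 and 136, and 29.2 and 40.4 CPM to 0 UMIs in WT, which allows up to 49.8 CPM, and 20.6 CPM in the mutant. The share of droplets with a Car1 UMI was not highest in the lowest bin, at 66.7% against 86.2% in the next bin in WT and 62.3% against 66.7% in the mutant, and it was 27.3% and 26.5% or less in the bins above.

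Per non-haemoglobin UMI, Klf1 was highest in the middle bin. Its level was 252 and 263 CPM at the lowest haemoglobin share, 438 and 439 CPM in the next bin and 605 and 584 CPM at 30 to 50%. It was 509.6 and 335 CPM at 50 to 70% and 266 (152 to 431) and 61.8 CPM (12.7 to 181) in the highest bin. The counting intervals of the libraries overlapped in every bin except that of 50 to 70%, where the mutant was lower. Per droplet the middle bin was not the highest. WT had 170 Klf1 UMIs in 29 droplets at 10 to 30% and 163 in 44 droplets at 30 to 50%. The mutant had 539 in 114 droplets of the lowest bin and 671 in 185 droplets of the middle bin.

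Per non-haemoglobin UMI, Alas2 and Slc4a1 were higher in each following bin, with Slc4a1 nearing a plateau first. Alas2 went from 151 CPM in WT against 223 CPM in the mutant through 850.3 and 1092, 2012 and 2226, and 3655 and 4678 to 5411 and 7724 CPM. Slc4a1 went from 382 and 629.5 through 1342 and 1879, 2828 and 3314, and 4273 and 4887 to 4780 and 4985 CPM, with overlapping counting intervals in the last pair of bins. Car2 was already at 3605 and 3200 CPM in the lowest bin and reached 11353 CPM in the highest WT bin, while the mutant stood at 8449 and 8363 CPM in its last pair.

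Bpgm came last. It stood at 37.8 CPM (23.4 to 57.8) and 99.9 CPM (86.7 to 114.5) in the lowest bin, 51.5 and 134 CPM in the next and 182 and 360.4 CPM at 30 to 50%. It then reached 1604 and 3825 CPM at 50 to 70% and 5693 and 10052 CPM in the highest bin. By CPM, Car1 was highest in the lowest bin and Klf1 in the middle bin, in both libraries. Bpgm, Alas2 and Slc4a1 were highest in the highest bin in both libraries, and Car2 in WT. Depth moved with the bins: the median of UMIs other than haemoglobin was 16946.5 in the lowest and 2096.5 in the highest WT bin, and 7423 and 2330.5 in the mutant. Markers of other classes summed to 234 to 432 CPM over the WT bins and 261 to 668 CPM over the mutant bins, and their part was not tested.

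**Figure D3:**
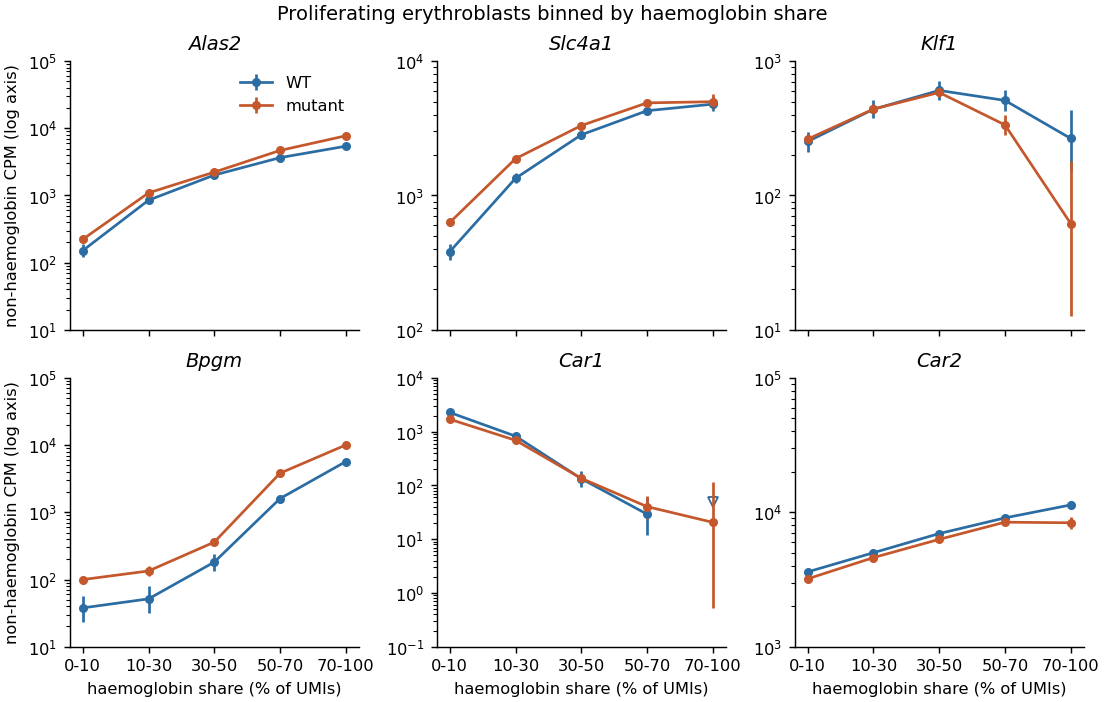
Levels of the 6 genes other than haemoglobin (vertical log axes, non-haemoglobin CPM with 95% Poisson intervals) in proliferating erythroblasts binned by haemoglobin share (horizontal axis, percent of UMIs) in WT (blue) and mutant (orange). The open triangle is the 49.8 CPM that 0 Car1 UMIs allow. On this scale Car1 is lower from left to right, Klf1 peaks at 30 to 50%, and Bpgm, Alas2 and Slc4a1 are highest at the right. Per droplet the order differs for Klf1, Slc4a1 and Car2.

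Within haemoglobin, the balance of the 2 alpha genes differed along the same bins. Hba-a1 made 90.4% of alpha UMIs in the lowest WT bin and 84.2, 81.3, 78.9 and 77.0% in the following ones. In the mutant it made 76.0, 71.4, 65.1, 59.0 and 56.8%. Late erythroblasts and haemoglobin-rich droplets lay near the last bin, at 76.7% and 75.65% in WT and 57.1% and 56.15% in the mutant. Among dividing cells Hba-a2 thus took a larger part of alpha UMIs where haemoglobin was higher, in both libraries. Late cells differed less: Hba-a1 made 78.7% (WT, 9 droplets) and 58.4% (mutant, 28 droplets) in those with under 10% haemoglobin and 76.6% and 56.9% in those with 70% or more.

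The mutant had a lower Hba-a1 share than WT in every group. Over single proliferating droplets with at least 50 haemoglobin UMIs the median was 79.9% (quartiles 77.4 and 83.3) in WT against 64.1% (58.63 and 70.15) in the mutant, and over late droplets 77.2% (75.3 and 78.3) and 57.1% (55.2 and 59.2). The quartiles of the libraries did not overlap. An offset of the same direction was found in droplets of other classes with under 1% haemoglobin. They had 71.8% (69.9 to 73.5) in WT against 55.3% (54.1 to 56.5) in the mutant. They come from the same libraries, so this is not an independent observation, and the source of their haemoglobin UMIs was not tested. The spliced transcripts of Hba-a1 and Hba-a2 match at 537 of 538 aligned bases in GENCODE M21, so the split of reads between them is uncertain. Genotype, library and counting cannot be told apart here.

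The balance of the beta genes also differed along the bins. Hbb-bt made 21.0, 20.7, 20.02, 19.1 and 18.6% of beta UMIs in WT and 28.0, 24.6, 21.8, 21.8 and 21.3% in the mutant, from the lowest haemoglobin bin to the highest. Summed over the stages it made 19.5% of beta UMIs in WT and 22.4% in mutant proliferating cells, and 19.1% and 22.95% in late cells. Haemoglobin-rich droplets had less of it, 14.95% (14.8 to 15.1) and 19.8% (19.7 to 19.9). Single haemoglobin-rich droplets split: of those with at least 500 beta UMIs, 18 of 71 in WT (25.4%, 15.8 to 37.1) and 32 of 280 in the mutant (11.4%, 7.95 to 15.75) had under 10% Hbb-bt. Among late erythroblasts with the same minimum of beta UMIs this was 0 of 50 (0 to 7.11%) and 0 of 108 (0 to 3.36%). Among proliferating ones it was 2 of 174 and 0 of 412. A low Hbb-bt share was therefore seen in droplets that had haemoglobin but no erythroblast gate genes. The transcripts of Hbb-bs and Hbb-bt match at 94.99% of aligned bases and at 87% of the last 200.

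Alpha chains took 33.9% of haemoglobin UMIs in WT and 37.3% in mutant proliferating cells, 34.5% and 40.03% in late cells, and 37.6% and 41.1% in haemoglobin-rich droplets. The order was not even: mutant intermediate cells, at 40.2% (40.08 to 40.37), lay above mutant late cells (39.91 to 40.15), and mutant dividing cells had 39.85% in the lowest haemoglobin bin against 36.2% at 30 to 50%. In droplets the quartiles overlapped between the stages, at 31.6 and 36.2% against 32.1 and 37.0% in WT.

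**Figure D4:**
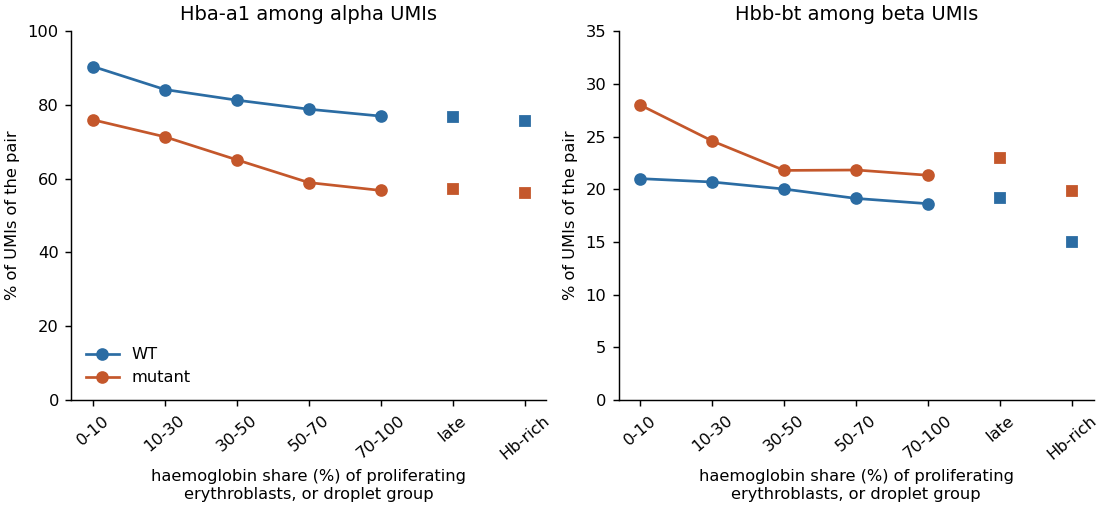
Left, Hba-a1 as a percent of the UMIs of Hba-a1 and Hba-a2; right, Hbb-bt as a percent of those of Hbb-bs and Hbb-bt. Circles are proliferating erythroblasts binned by haemoglobin share, squares are late erythroblasts and haemoglobin-rich droplets, WT in blue and mutant in orange; the Hba-a1 share goes from 90.4 to 77.0% in WT and from 76.0 to 56.8% in the mutant across the bins, and the Hbb-bt share is lowest in haemoglobin-rich droplets.

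Haemoglobin-rich droplets stood above late cells for some of the other 6 genes and below them for others. They held a median of 224 UMIs other than haemoglobin in WT and 464 in the mutant, so levels per non-haemoglobin UMI are relative to very little RNA. On that scale the 50 markers of other classes summed to 3842 and 4370 CPM, compared with 608 and 1460 CPM in late cells. Ptprc was at 223 and 433 CPM, against 275.5 and 498 CPM in other classes. The part of such RNA in the levels below was not tested. Alas2 was at 32385 CPM (30070 to 34831) in WT against 14313 CPM (13824 to 14814) in the mutant, 7.64-fold and 2.85-fold over late cells. Bpgm was at 22290 and 12163 CPM, 5.01-fold and 1.88-fold. Per droplet both were lower than in late cells, Alas2 at 8.43 and 8.32 UMIs and Bpgm at 5.80 and 7.07 UMIs, so the direction turns with the scale. After thinning to 2000 UMIs, Alas2 was found in 85.9% of 64 WT and 93.1% of 261 mutant droplets of this depth.

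Slc4a1 and Car2 were lower in haemoglobin-rich droplets on every scale given. Slc4a1 was at 759 CPM (442 to 1216) in WT droplets and 509 CPM (420 to 610.5) in mutant ones, compared with 2802 and 2889 CPM in late cells. Car2 was at 1027 and 504 CPM against 7390 and 5179 CPM, 7.19-fold and 10.3-fold lower. Klf1 had 0 UMIs in WT, which allows up to 134 CPM and so could not be told from the late level of 119 CPM at this depth, and 4 UMIs in the mutant. Car1 had 0 UMIs in WT. In the mutant it had 22 UMIs, at 97.3 CPM against 96.9 CPM in late cells. The group was chosen for 0 UMIs of the gate genes, several of them membrane genes, and the part of that choice in the low Slc4a1 was not tested. Of the 9 genes with enough UMIs, Alas2 and the 4 haemoglobin genes were at least 2-fold higher in both libraries, Slc4a1 and Car2 at least 2-fold lower, and Bpgm and Car1 neither, against 6.05% higher and 44.1% lower among 562 genes. Since haemoglobin chose these droplets, nothing is read from its 4 genes here.

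**Figure D5:**
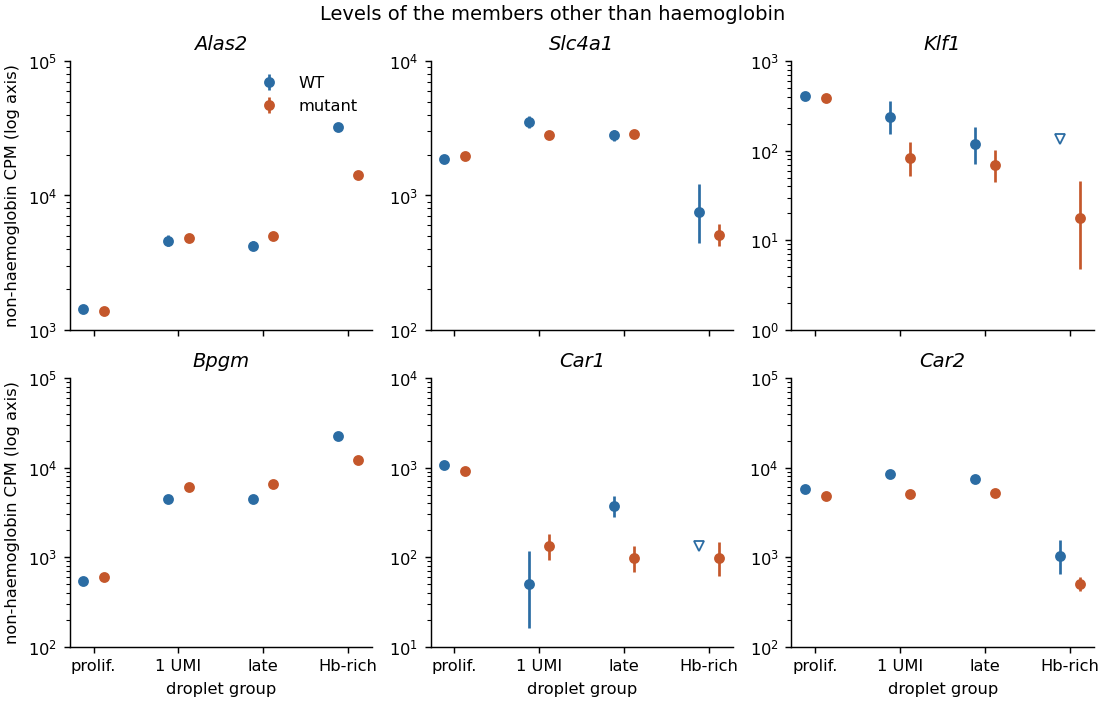
Levels of the 6 genes other than haemoglobin (vertical log axes, non-haemoglobin CPM with 95% Poisson intervals) in proliferating, 1-UMI and late erythroblasts and haemoglobin-rich (Hb-rich) droplets of WT (blue) and mutant (orange). Open triangles mark the 134 CPM that 0 UMIs allow; Alas2 and Bpgm are highest in haemoglobin-rich droplets, Slc4a1 and Car2 lowest there, and Klf1 and Car1 highest in proliferating cells.

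In other classes with at least 20 droplets the 6 genes were lower than in proliferating and late erythroblasts of the same library. The highest level of each was higher in the mutant than in WT. The sets of classes differed, since adipocytes had 31 droplets in the mutant and 2 in WT, where they were left out. For Bpgm and Car1 the mutant's distance was modest. Bpgm in adipocytes was at 210.1 CPM against 594 CPM in proliferating erythroblasts, and Car1 at 24.7 CPM against 96.9 CPM in late ones. The highest level in another class with at least 20 droplets was 14.4 CPM for Alas2 in WT neutrophils, of which 23 of 25 UMIs came from 1 droplet, and 145 CPM in mutant adipocytes. Slc4a1 reached 6.26 and 20.55 CPM, Klf1 0.741 and 6.18 CPM, and Car1 0.653 and 24.7 CPM. In WT each of these values rests on 1 UMI, and in the mutant they rest on 27, 2 and 8 UMIs. Bpgm reached 30.7 CPM in WT Schwann cells and 210.1 CPM in mutant adipocytes, and Car2 27.8 CPM in WT B cells and 61.2 CPM in mutant T cells.

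Between the libraries at one stage, none of the 10 genes differed 2-fold in proliferating erythroblasts with all haemoglobin shares pooled. Among 7787 genes 7.09% were at least 2-fold higher in the mutant and 1.07% at least 2-fold lower. Alas2 had a log2 ratio of mutant over WT of -0.06 (-0.13 to 0.01), Klf1 -0.07 (-0.20 to 0.07), Slc4a1 0.10 (0.03 to 0.16) and Bpgm 0.14 (0.02 to 0.25). Car1 and Car2 were at -0.22 (-0.30 to -0.13) and -0.26 (-0.30 to -0.23). The haemoglobin genes split, with Hba-a1 at -0.72, Hbb-bs at -0.66, Hbb-bt at -0.41 and Hba-a2 at 0.45. The libraries filled the bins of haemoglobin share differently, so pooled ratios can differ from those within a bin. Bpgm, Alas2, Slc4a1 and Hba-a2 were higher in the mutant in every bin, and Car2 and Hbb-bs lower. At 50 to 70% Bpgm was at 3825 CPM in the mutant against 1604 CPM in WT. The part of the bin mix was not tested.

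In late erythroblasts 9 genes had enough UMIs and Car1 alone was past 2-fold, at -1.93 (-2.58 to -1.30). Among 1431 genes 8.04% were at least 2-fold higher in the mutant and 4.82% at least 2-fold lower. The Car1 value rests on 1 WT droplet, and without each library's top droplet the log2 ratio was 0.14. Hba-a2 was just inside 2-fold at 0.98 (0.958 to 0.998), Bpgm was at 0.54 (0.42 to 0.66), Alas2 at 0.25 (0.12 to 0.38), Slc4a1 at 0.04 (-0.12 to 0.21) and Car2 at -0.51 (-0.62 to -0.41). Hba-a1, Hbb-bs and Hbb-bt were at -0.33, -0.31 and 0.02. Klf1, with 19 UMIs in WT and 25 in the mutant, was at -0.78 (-1.70 to 0.16). S100a8 and S100a9, abundant neutrophil transcripts, moved with the library in the same cells, at 420.0 CPM in WT against 3941 CPM in mutant late erythroblasts, and their part was not tested.

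Other lists of red cell genes were set beside the 10, per non-haemoglobin UMI. They were chosen with earlier results of these data known, so their counts are a description. Per droplet few genes of any kind were past 2-fold higher in late cells, so the counts of higher genes depend on this scale. Of 18 genes of terminal maturation and organelle clearance, 15 were at least 2-fold higher in late cells in both libraries and 0 lower, against 7.6% and 37% of all genes, with a median log2 ratio of 1.87 over the 18 when the libraries were averaged. Xpo7, a nuclear export receptor, went from 1125 to 8895 CPM in WT and from 1132 to 9295 CPM in the mutant. Ube2o and Mkrn1, ubiquitin ligases, had log2 ratios of 2.65 and 2.53, and of 2.31 and 2.71. Tent5c, a poly(A) polymerase, had 2.48 and 2.71.

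Of 11 genes of haem synthesis beyond Alas2, 0 were at least 2-fold higher and 4 lower, a lower share near the 37% of all genes. The lower ones were Alad, which makes porphobilinogen, with log2 ratios of -2.69 and -3.20, Cpox, a later enzyme of the pathway, with -1.15 and -1.77, and the mitochondrial carriers Tmem14c (-3.83 and -3.42) and Slc25a38 (-1.14 and -1.48). Fech, which inserts the iron, was at 0.85 and 1.07. Of 13 membrane and skeleton genes, Epb41 (2.17 and 1.91) and Mpp1 (1.18 and 1.75) were higher and Icam4 (-1.82 and -3.30) and Aqp1 (-2.10 and -1.99) lower, against 7.6% higher and 37% lower among all genes. Slc4a1, at 0.59 and 0.54, lay between these.

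Among 12 erythroid transcription factors with enough UMIs, Nfe2 was higher (1.11 and 1.06) and Gata1 (-1.23 and -2.34) and Zfpm1, the Gata1 cofactor (-1.76 and -1.98), were lower, again against 7.6% and 37% among all genes. Of 5 antioxidant genes, Cat (2.18 and 2.48) and Gpx1 (1.28 and 1.49) were higher and Sod1 (-1.06 and -1.79) lower, with the same shares among all genes. Sod1 rests on 7 UMIs in WT and 18 in mutant late cells, and its WT interval (-2.40 to 0.025) includes no difference. Other globin genes gave 1 gene with enough UMIs, Hbq1b, at 0.75 and 1.13, early progenitor genes 1, glycolysis 5 and the other carbonic anhydrases 0, and 0 of these were past 2-fold in both libraries.

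The genes whose levels most resembled each of the 6 were found by Pearson's r of log2(CPM + 5) over 29 droplet groups of both libraries. The groups share library and depth, and most are other classes in which the 6 genes were low. A high r thus follows in part from erythroid against other classes, and r is a description. Klf1 was most like Icam4 (0.99), Gata1 (0.99) and A730036I17Rik (0.99). Alas2 was most like Ube2l6 (0.98), Apol11b (0.96) and Tent5c (0.96), and Bpgm like Ube2l6 (0.97), Tent5c (0.97) and Fech (0.97). Slc4a1 was most like F930017D23Rik (0.99), Tspan33 (0.98) and Syt14 (0.98), and Car2 like Abcb10 (0.97), 5430401H09Rik (0.97) and Tspan33 (0.97). Car1 was most like the transporters Slc6a20a (0.95) and Slc38a5 (0.94) and Gata1 (0.92). Klf1 and Car1 thus shared a neighbour, as did Alas2 and Bpgm, and Slc4a1 and Car2.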

How the data were processed

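Droplet-based 3′ single-cell libraries of CFA-treated TMJ, 1 WT and 1 Prox1 mutant, were analysed from the UMI counts per gene and barcode deposited by the authors, who made them with Cell Ranger 7.0.1 on GRCm38. The study's filter (at least 500 genes, under 10% mitochondrial UMIs) was applied to all groups but haemoglobin-rich droplets. Some genes of the erythroblast gate are not reported here. Droplets that passed another class's markers were set aside and no doublet caller was run. The 10 genes and all lists were chosen with earlier results of these data known. UMIs were summed per library and group and divided by the UMIs other than haemoglobin, and 3 UMIs set the limit where a gene had 0. Intervals (95%) are exact Poisson for CPM, Clopper-Pearson for shares and exact conditional for ratios of 2 counts. Genes needed 50 UMIs over both groups in each library compared, and 2-fold in both libraries was called for stages. Beyond the 10, up to 4 genes a list with the largest mean ratio past 2-fold were named, and the 3 genes most like each non-globin member; Hbq1b was named after its values were seen. With 1 library per group no test was made. Python 3.11.15, numpy 2.4.6, scipy 1.17.1 and pandas 2.3.3 were used, and the script was tested on simulated data. Other gates, filters, scales and thinning were tried.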

Additional observations from a re-analysis of the deposited data

How the results depend on the processing

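No paired analysis was possible because each group has 1 library, and for the same reason no library could be left out. Leaving the cause of each change untested, the haemoglobin share of proliferating erythroblasts (35.47% in WT, 27.54% in mutant) was 35.41 and 28.08% with a filter of 200 genes and 20% mitochondrial UMIs, 29.69 and 24.95% with 1000 genes and 5%, 35.56 and 27.61% with a gate of 6 UMIs, 31.45 and 24.38% with proliferation from 4 UMIs, 33.25 and 24.58% after thinning to 2000 UMIs, and 31.67 and 25.46% with droplets of another class kept. Among alternatives chosen after seeing the data it was 47.56 and 41.82% with under 3 UMIs of other classes' markers and 35.66 and 27.79% from 4000 UMIs. In the same order without the proliferation cut, the share of late erythroblasts (65.29 and 63.45%) was 85.63 and 80.52%, 35.9 and 47.37%, 67.04 and 65.91%, 69.2 and 62.08%, 52.17 and 49.44%, 65.99 and 67.36%, and 67.17 and 70.33%. It stayed above the proliferating share in both libraries under each. None of these alternatives separates the stage rule from the haemoglobin share, since thinning also drew from all UMIs.

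Late erythroblasts (59 and 166) numbered 291 and 466 with 200 genes, 6 and 31 with 1000 genes, 101 in WT after thinning, 321 in the mutant with droplets of another class kept and 100 in the mutant with under 3 UMIs of other classes' markers, where mutant proliferating cells (553) numbered 269 and haemoglobin-rich droplets (389) 240. Haemoglobin-rich droplets numbered 153 and 966 after thinning and 2 and 88 from filtered barcodes alone.

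Of the 10 genes, 6 were higher in late cells, but 1 with 1000 genes, 2 per 1000000 of all UMIs and 1 per droplet, where Alas2 turned to -0.14 in the mutant. Lower ones (2) came to 1 with 1000 genes and 1 with under 3 UMIs of other classes' markers, and to 3 per droplet, where Car2 joined them. Between libraries in late cells, genes higher in the mutant (0) came to 2 with 1000 genes and 1 with a gate of 6 UMIs, after thinning, per 1000000 of all UMIs, with under 3 UMIs of other classes' markers and from 4000 UMIs. Genes lower (1, Car1) came to 0 after thinning (log2 ratio 3.26), with droplets of another class kept, with a minimum of 200 UMIs and without the top droplet (0.14). In proliferating cells genes lower (0) came to 1 with under 3 UMIs of other classes' markers.

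Over all genes, those higher and lower in late cells (334 and 1626) numbered 86 and 2953 per 1000000 of all UMIs and 6 and 3604 per droplet. Across the alternatives they ranged from 6 to 822 and from 613 to 3604. Those higher and lower in the mutant ranged from 115 to 837 and 33 to 150 in proliferating cells, and from 14 to 388 and 8 to 203 in late cells. Depth limits Klf1 and Car1 most, with 59 UMIs or fewer in late cells.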
